A study of Mus musculus with 4 samples.

Results

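The genes described here encode proteins of the mitochondrial ribosome. They were chosen by name alone, as symbols that begin with Mrpl or Mrps and a digit, carry no pseudogene suffix and are listed in all 4 libraries. Of 25437 gene names in the files, 80 match the pattern; 4 pseudogene names and Mrpl53, which is not in all 4 libraries, were left out. This gave 75 genes, 46 of the large subunit and 29 of the small subunit by symbol. All 75 match a RefSeq symbol, and they lie on many chromosomes, with at most 10 on any one (chromosome 11).

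The mitochondrial ribosome is built of a large and a small subunit and translates the mRNAs that mitochondrial DNA encodes, whose products are core parts of the respiratory chain and the ATP synthase. Its RNAs come from mitochondrial DNA, but its proteins are encoded in the nucleus, translated in the cytosol and imported. In diapause the mouse blastocyst halts before implantation, with little growth and a low metabolic rate, and estrogen ends the halt.

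Single cells of whole wildtype B6C3F1/J mouse embryos were captured in microwells with BD Rhapsody, and each stage has 1 library. The libraries are EDG7.5, EDG9.5, Reactivated (EDG9.5 plus 30 h of E2, that is estradiol) and E5.5. No other allele or agent is given for any of them. Between 200 and 250 blastocysts flushed from the uterus were used for each of the flushed libraries (EDG7.5, EDG9.5, Reactivated). For E5.5, 50 embryos were picked out of implantation sites. Embryos of a stage were pooled, so stage goes together with the way of collection and with the library. The E4.5 stage named in the series text is not analysed here. The labels give day 5.5 without estradiol for E5.5, day 7.5 for EDG7.5 and day 9.5 for EDG9.5 and Reactivated. The 4 libraries are thus not one course of time. Below, stage order means the order EDG7.5, EDG9.5, Reactivated, E5.5, and later libraries means Reactivated and E5.5.

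Totals were 9270833 to 87507141 molecule counts (UMIs) per library, and 672 to 9262 cells per library were kept. In stage order (EDG7.5, EDG9.5, Reactivated, E5.5) the median kept cell had 5104, 3816.5, 13161 and 8724.5 UMIs; wherever 4 values of a gene are given, they stand in this order. Clusters were named epiblast (the future embryo), endoderm (primitive endoderm and its descendants) or trophoblast (the future placenta) from marker genes, and a lineage held 163 to 3629 cells of a library. Each name's own markers summed higher in its lineage than in the other lineages, in every library: the epiblast list reached 3970.2 to 9961 CPM in epiblast and at most 3415 CPM elsewhere, the endoderm list 9965 to 12286 and at most 370.0, and the trophoblast list 5053 to 7503 and at most 684. The same lists had named the clusters, so this order was largely fixed in advance and does not test the names. Any 2 libraries shared 1 to 25 kept barcodes. With 1 library per stage there is no replicate, so no difference has a test or a p-value. All intervals are 95% intervals of counting error only. The counts have not been scaled by gene length, so levels are compared between libraries and lineages for the same genes and not between genes.

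To show sequence around an annotated start of genes at both ends of the response to reactivation, 5 promoters are printed 5′ to 3′, from RefSeq on build GRCm38.p6. Each runs from 250 bases before to 50 bases after that start of transcription. They belong to the member of each subunit with the highest mean log2 ratio of Reactivated over EDG9.5 over the 3 lineages (Mrpl18 and Mrps12), to the 2 members with the lowest (Mrpl24 and Mrps2), and to the member whose promoter holds the most different motifs (Mrps27). The candidates had a single promoter and 50 or more UMIs in every pair of sums. Capitals mark the motifs searched, on either strand. The positions are chr17:12916042-12916341 on the minus strand for Mrpl18, chr7:28741772-28742071 on the minus strand for Mrps12, chr13:99344536-99344835 on the plus strand for Mrps27, chr3:87919294-87919593 on the plus strand for Mrpl24 and chr2:28467816-28468115 on the plus strand for Mrps2.
Mrpl18: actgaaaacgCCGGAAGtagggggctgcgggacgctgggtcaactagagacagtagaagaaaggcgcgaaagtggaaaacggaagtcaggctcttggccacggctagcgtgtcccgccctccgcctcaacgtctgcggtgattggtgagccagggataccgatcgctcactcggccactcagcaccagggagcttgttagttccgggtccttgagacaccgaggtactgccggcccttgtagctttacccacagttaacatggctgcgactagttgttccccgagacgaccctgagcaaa
Mrps12: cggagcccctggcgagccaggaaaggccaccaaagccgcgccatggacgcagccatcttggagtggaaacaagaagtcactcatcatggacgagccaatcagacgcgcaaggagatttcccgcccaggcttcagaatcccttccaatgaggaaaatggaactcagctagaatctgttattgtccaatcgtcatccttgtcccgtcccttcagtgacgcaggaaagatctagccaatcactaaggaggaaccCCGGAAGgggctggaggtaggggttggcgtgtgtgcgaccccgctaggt
Mrps27: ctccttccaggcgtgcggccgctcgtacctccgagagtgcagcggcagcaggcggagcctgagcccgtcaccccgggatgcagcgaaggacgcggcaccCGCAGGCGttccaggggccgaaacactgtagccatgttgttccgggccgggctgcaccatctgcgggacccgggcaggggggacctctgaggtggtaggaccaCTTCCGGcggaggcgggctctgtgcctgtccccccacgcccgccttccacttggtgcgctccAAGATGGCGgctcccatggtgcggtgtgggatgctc
Mrpl24: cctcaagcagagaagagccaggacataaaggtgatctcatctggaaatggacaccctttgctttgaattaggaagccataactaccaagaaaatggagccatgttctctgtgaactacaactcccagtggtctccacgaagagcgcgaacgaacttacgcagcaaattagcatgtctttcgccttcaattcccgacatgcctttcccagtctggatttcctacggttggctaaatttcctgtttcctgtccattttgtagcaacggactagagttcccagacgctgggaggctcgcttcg
Mrps2: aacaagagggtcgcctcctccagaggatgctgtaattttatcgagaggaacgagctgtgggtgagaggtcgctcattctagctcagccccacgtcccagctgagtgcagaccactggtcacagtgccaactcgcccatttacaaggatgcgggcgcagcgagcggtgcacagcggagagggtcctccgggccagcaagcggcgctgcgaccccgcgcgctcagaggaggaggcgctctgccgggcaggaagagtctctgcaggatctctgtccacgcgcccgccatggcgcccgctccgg

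The motifs were cores bound by factors that are known regulators of nuclear genes for mitochondrial proteins or of growth: NRF1 (CGCANGCG), ETS factors such as GABP (CCGGAAG), YY1 (AANATGGCG), CREB (TGACGTCA) and the E-box of MYC (CACGTG). Mrpl18 and Mrps12 each hold 1 ETS core, 240 bases before and 1 base after the start. Mrps27 holds an NRF1 core 151 bases before the start, an ETS core 48 bases before it and a YY1 core 14 bases after it. Neither Mrpl24 nor Mrps2 holds any of these letters in the window. For Mrpl18, Mrpl24 and Mrps2 the window lies inside the RefSeq span of the gene (chr17:12911345-12917787, chr3:87918131-87923450 and chr2:28465951-28471177). Sequence at the outer end of these 3 genes is not printed, so a motif there would not be seen.

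RefSeq gave a promoter for 66 of the 75 members (88%), with 72 promoters in all. The ETS core is in 23 of the 72 (31.9%), against 8.86% of all 32851 promoters, and the NRF1 core in 19 (26.4%), against 8.21%. The YY1 core is in 10 (13.9%), against 2.38% of all. The CREB motif is in 2 (2.78%, against 1.79%) and the E-box in 7 (9.72%, against 7.15%). No 2 motifs overlap in a member's promoter, 25 of the 72 (34.7%) hold none of the 5 motifs, and 76.6% of all promoters hold none. Promoters of protein-coding genes alone hold them in 11.6% (ETS), 11.1% (NRF1), 3.12% (YY1), 2.23% (CREB motif) and 7.84% (E-box). A match describes letters and is neither a binding site nor a cause.

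Together the mitoribosomal protein genes made up a larger share of the transcripts in the Reactivated and E5.5 libraries than in both diapause libraries, in every lineage. In epiblast they summed to 3783 CPM in EDG7.5 and 3459 in EDG9.5, but to 6611 in Reactivated and 6455 in E5.5. The endoderm sums were 4027, 3713, 6169.6 and 5348 CPM in the same order. Trophoblast had 3793, 3738, 7903 and 6911 CPM. The 2 diapause libraries lay between 3459 and 4027 CPM, below every sum of the 2 later libraries, and the highest sum was that of Reactivated trophoblast, at 0.79% of its UMIs. A share says nothing of the amount per cell, and fewer or more molecules of other genes in a cell would move it too.

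**Figure D1:**
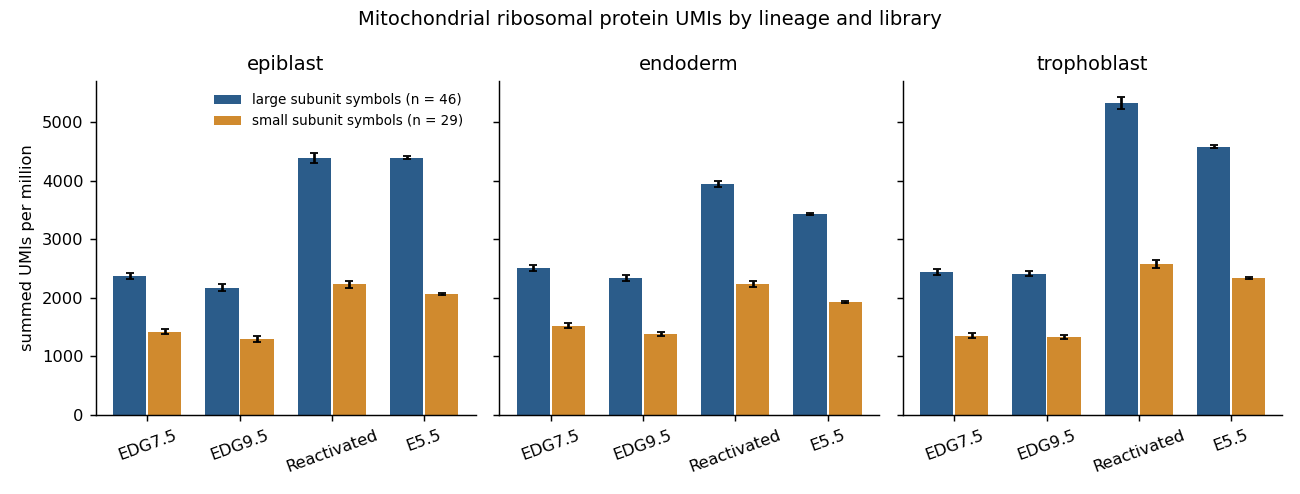
Summed level in CPM (y axis) of the 46 large and the 29 small subunit members, as separate bars. The 4 libraries stand in stage order (x axis) for epiblast, endoderm and trophoblast, with 95% counting intervals. In each lineage and for each subunit the 2 diapause libraries lie below Reactivated and E5.5. The highest bar is the large subunit in Reactivated trophoblast, at 5326 CPM.

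Counted per cell, a mean of 22.1, 14.8, 82.6 and 56.7 UMIs of these genes was found in epiblast cells of the 4 libraries in stage order. Endoderm cells had 22.6, 15.4, 94.9 and 48.4, and trophoblast cells 21.2, 17.7, 96.5 and 63.2. These means carry the depth of each library, which was greatest in Reactivated. After every cell was thinned to 1000 UMIs, the median epiblast cell held 4, 3, 6 and 6 of them, the median endoderm cell 4, 4, 5 and 5, and the median trophoblast cell 4, 3, 7 and 7. The order of the later against the diapause libraries was thus the same at equal depth.

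Most single members followed the sum. In epiblast 62 of 75 members were higher in both later libraries than in both diapause libraries, a pattern shown by 24.2% of all genes; in endoderm 57 of 75 did so, against 23.5% of all genes, and in trophoblast 67 of 75, against 31.4%. In all 3 lineages the pattern was held by 51 members and by 10% of the genes measured in all 3. The opposite pattern, lower in both later libraries, was shown by 1 member in each lineage, against 40.2% of all genes in epiblast, 41.9% in endoderm and 29.6% in trophoblast. These were Mrps2 in epiblast, Mrps35 in endoderm and Mrps31 in trophoblast. These counts use the bare order of 4 values, without a minimum difference.

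**Figure D2:**
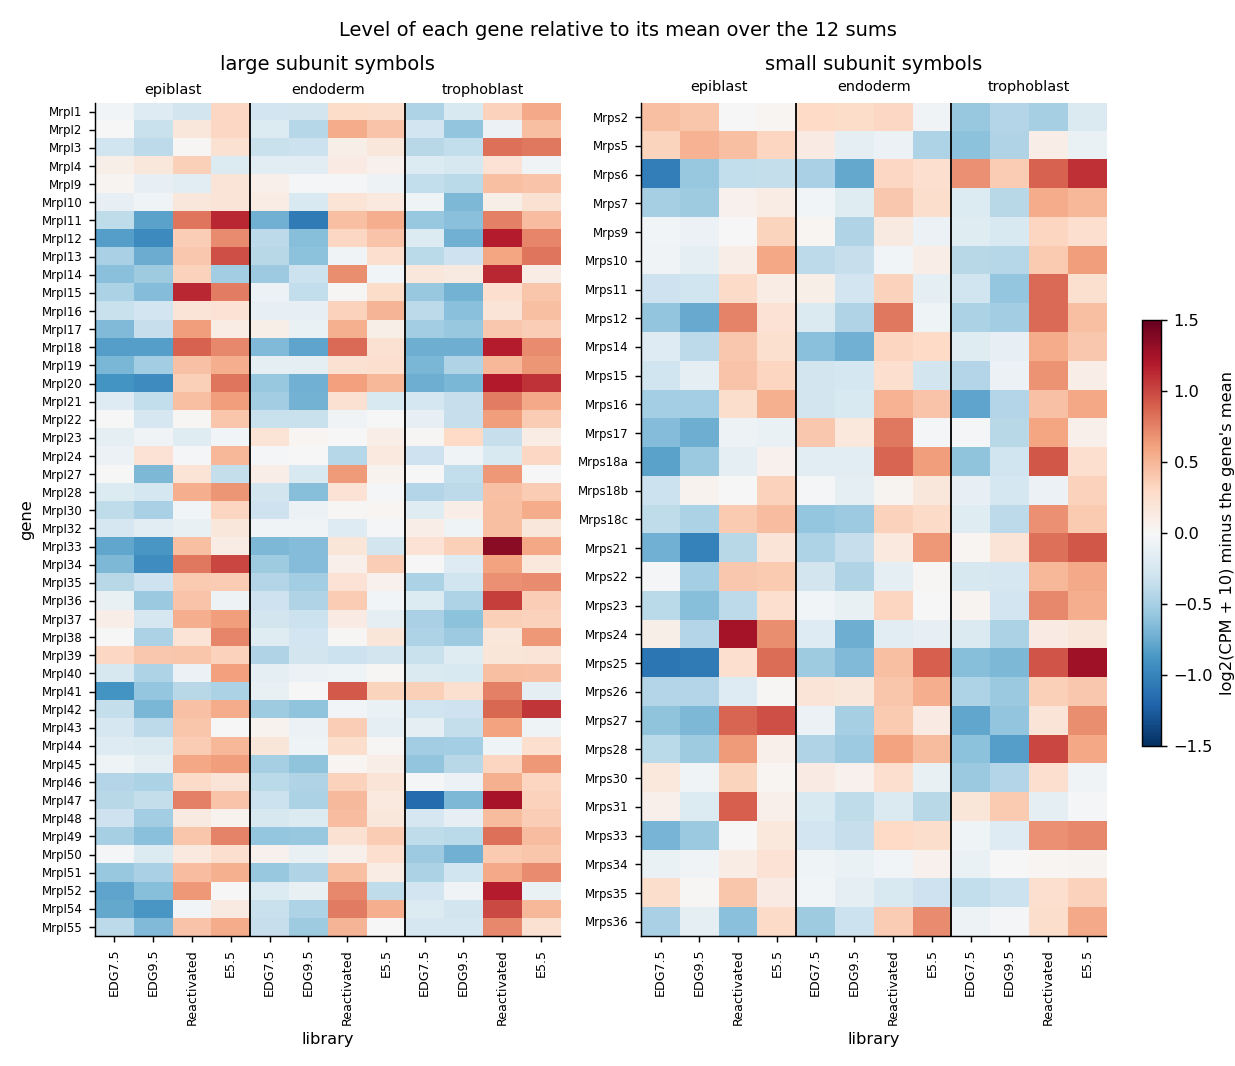
Level of each of the 75 members (rows, large subunit in the left panel and small in the right) in the 12 sums of library and lineage (columns). Values are log2(CPM + 10) minus the gene's own mean over the 12 sums. Most rows are low in the EDG7.5 and EDG9.5 columns and high in the Reactivated and E5.5 columns, while rows such as Mrps2 in epiblast and Mrps31 in trophoblast run the other way.

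The first comparison asks what happens between EDG7.5 and EDG9.5, both in diapause. The mitoribosomal genes were close to level. Their summed share in EDG9.5 was 0.915 times that in EDG7.5 in epiblast (0.889 to 0.941), 0.922 times in endoderm (0.9 to 0.945) and 0.985 times in trophoblast (0.963 to 1.01). The median member's log2 ratio of (CPM + 10) was -0.075, -0.10 and -0.029 in epiblast, endoderm and trophoblast, beside -0.02, -0.025 and -0.018 over all genes measured. A gene counts as measured with at least 10 UMIs in the 2 sums, which 74 of the 75 members reached, and as called when the ratio of (CPM + 10) is at least 1.5-fold.

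No member was called higher in EDG9.5 in any lineage, where 0.879% of all genes were in epiblast, 1.06% in endoderm and 1.25% in trophoblast. Called lower were 1 member in epiblast (1.04% of all genes), 0 in endoderm (0.98%) and 1 in trophoblast (1.14%), shares near those of all genes. The one in epiblast was Mrpl27, homologous to a bacterial protein that reaches towards the peptidyl transferase centre, with 27.1 CPM in EDG9.5 and 49.4 CPM in EDG7.5 (ratio 0.55, 0.406 to 0.738). In trophoblast it was Mrpl10, at the base of the stalk that recruits translation factors, with 14.9 CPM in EDG9.5 and 27.9 CPM in EDG7.5 (0.534, 0.384 to 0.74). Without the EDG7.5 and EDG9.5 trophoblast clusters described further on, no member was called either way in trophoblast.

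Some members stood off from level without reaching the fold. Mrps24, a homologue of the bacterial protein at the mRNA entry, had 40.1 CPM in EDG9.5 and 62 CPM in EDG7.5 epiblast, and 30.9 and 49.1 CPM in endoderm in that order. Mrpl47, homologous to a bacterial protein near the exit of the peptide tunnel, had 28 CPM in EDG9.5 and 17.3 CPM in EDG7.5 trophoblast. Mrpl12, whose bacterial homologue forms the stalk itself, had 10.2 CPM in EDG9.5 and 18.8 CPM in EDG7.5 trophoblast, from 46 and 62 UMIs. Mrps6 had 16.9 CPM in EDG9.5 and 9.45 CPM in EDG7.5 epiblast, and Mrpl41, a mitochondria-specific protein, 32.6 and 24.2 CPM. Mrps9, a bacterial homologue, had 18.9 CPM in EDG9.5 and 30.4 CPM in EDG7.5 endoderm. Mrps24 was thus among the lowest in both epiblast and endoderm.

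The second comparison, Reactivated over EDG9.5, asks what differs once diapause is ended. The summed share of the mitoribosomal genes was 1.91 times as high in Reactivated epiblast (1.86 to 1.96), 1.66 times in endoderm (1.63 to 1.7) and 2.11 times in trophoblast (2.07 to 2.16). The median member had a log2 ratio of 0.69 in epiblast, 0.61 in endoderm and 0.87 in trophoblast. Over all genes measured the median was -0.23, -0.16 and -0.079 in the same lineages, so the typical member and the typical gene lay on opposite sides of level. The members from the lower to the upper quartile lay between 0.29 and 1.03 in epiblast cells, 0.31 and 0.89 in endoderm cells, and 0.59 and 1.06 in trophoblast cells.

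Called higher in Reactivated were 44 of 74 members in epiblast, where 15.7% of all genes were called, 38 of 74 in endoderm (12.9% of all genes) and 56 of 74 in trophoblast (19.6%). Called lower were 0 in epiblast, 0 in endoderm and 1 in trophoblast, while 31.8%, 23.6% and 22% of all genes were called lower in those lineages. The 1 member was Mrpl23, with 4 UMIs in Reactivated trophoblast and 40 in EDG9.5 trophoblast, a gene with few counts and a pseudogene of its own. Depth differed between the libraries; with every cell thinned to 1000 UMIs, 43 of 71 members were called higher in epiblast and 1 lower (20.1% and 40.4% of all genes), 30 of 71 higher in endoderm and 1 lower (18.8% and 34.6%), and 48 of 70 higher in trophoblast and 3 lower (24.7% and 33.6%). Library scaling also bears on these sizes. With TMM factors, which assume that most genes are level, the median of all genes was -0.042, 0.0017 and -0.078 and the members' median 0.98, 0.86 and 0.88. Relative to all genes, the member median was thus higher by 1.02, 0.86 and 0.96 with TMM factors and by 0.92, 0.77 and 0.95 without. Of all genes, 22.3% were then called higher and 23.6% lower in epiblast and 19.9% higher and 16% lower in endoderm, and of the members 55 and 54 were called higher and 0 lower.

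**Figure D3:**
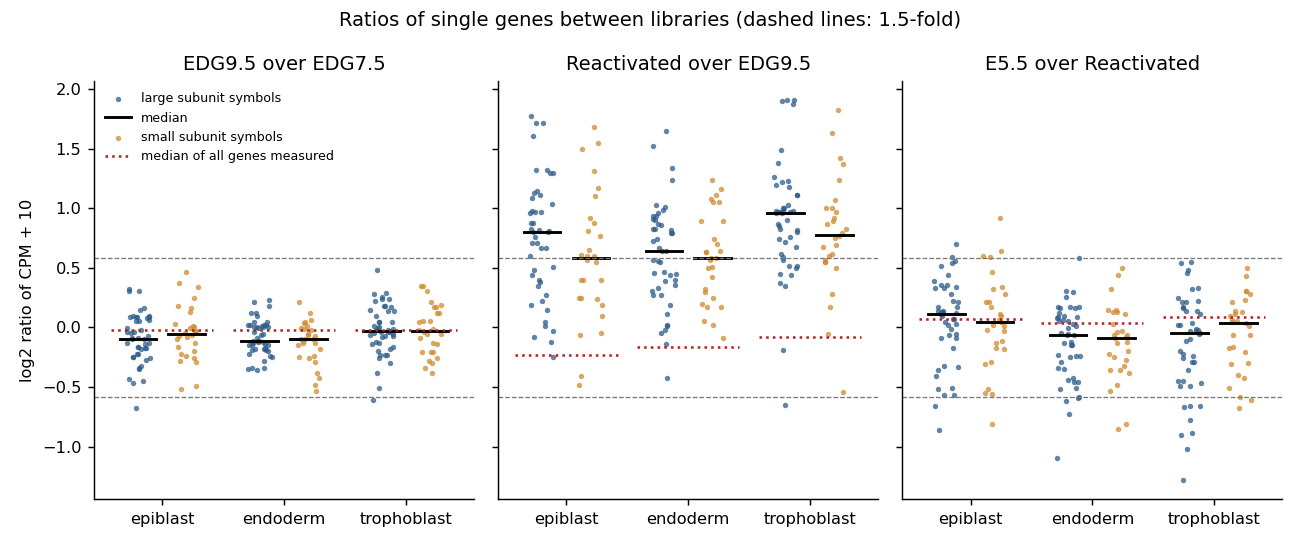
Log2 ratio of (CPM + 10) for each measured member (points, large and small subunit apart) in the 3 comparisons and 3 lineages. Solid lines mark the median of each subunit, dotted lines the median of all genes measured and dashed lines 1.5-fold. The EDG9.5 over EDG7.5 points gather around 0, and those of Reactivated over EDG9.5 lie mostly above it. Their medians in epiblast, endoderm and trophoblast are 0.80, 0.64 and 0.96 for the large subunit and 0.58, 0.58 and 0.78 for the small.

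Of the 75 members, 31 were called higher in all 3 lineages, 22 of the large and 9 of the small subunit, as were 6.52% of the genes measured in all 3. A further 13 were called in 2 lineages and 19 in 1, and 12 in none, among them Mrpl24, Mrps2, Mrpl32 and the thinly counted Mrps34. The 22 were Mrpl11, Mrpl12, Mrpl14, Mrpl17, Mrpl18, Mrpl20, Mrpl21, Mrpl27, Mrpl28, Mrpl33 to Mrpl36, Mrpl45 to Mrpl49, Mrpl51, Mrpl52, Mrpl54 and Mrpl55, and the 9 were Mrps11, Mrps12, Mrps14, Mrps16, Mrps17, Mrps18c, Mrps25, Mrps27 and Mrps28. No member called higher in one lineage was called lower in another. In the promoters, the ETS core was held by 13 of the 29 members called in 3 lineages that have a promoter (44.8%) and by 1 of the 9 called in none (11.1%). The NRF1 core went the other way, with 6 of the 29 (20.7%) and 4 of the 9 (44.4%). With 9 genes in the smaller set these counts are a description only.

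Among proteins of the large subunit, Mrpl18, which sits in the central protuberance, had one of the 2 highest ratios in every lineage among members with 50 or more UMIs in the pair of sums. It had 92.4, 92, 326 and 288 CPM in epiblast in stage order, 105, 94.5, 317 and 203 in endoderm cells and 98.8, 99.2, 399.8 and 286 in trophoblast cells. Both later libraries lay well above both diapause libraries in each lineage, and Reactivated was the highest. Reactivated over EDG9.5 was 3.55-fold in epiblast (3.06 to 4.12), 3.35-fold in endoderm (2.98 to 3.78) and 4.03-fold in trophoblast (3.59 to 4.54). Exons of Mrpl18 share 10.1% of their bases with Tcp1 on the other strand.

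Mrpl15, a bacterial homologue in the core of the large subunit, differed by lineage. Epiblast had 144, 126, 459 and 355 CPM in the 4 stages in order, endoderm 191, 155, 207 and 249, and trophoblast 134, 121, 245 and 276. Reactivated over EDG9.5 was thus 3.64-fold in epiblast, 1.33-fold in endoderm and 2.03-fold in trophoblast. Mrpl42, found in mitochondrial but not bacterial ribosomes, was called higher in Reactivated in epiblast and trophoblast, but not in endoderm (2.28-fold, 2.34-fold and 1.52-fold). Its levels were 153, 120.3, 274 and 298 CPM in epiblast cells, 134, 128, 194 and 185 in endoderm cells and 160.3, 158, 369 and 429 in trophoblast cells. Its later values lay above both diapause values in each.

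Members of the factor-binding stalk and its base were among those called in every lineage. Mrpl12 had 32.8 CPM in Reactivated and 7.08 in EDG9.5 epiblast, 31.2 and 11.4 CPM in endoderm, and 65.3 and 10.2 CPM in trophoblast. Mrpl11, at the stalk base, had 98.7 CPM in Reactivated and 25.6 in EDG9.5 epiblast, 75 and 19.7 CPM in endoderm, and 94.9 and 30.2 CPM in trophoblast. The stalk-base protein Mrpl10 was called in trophoblast, with 32.1 CPM in Reactivated and 14.9 in EDG9.5, and had 34.7 CPM in Reactivated and 28.3 in EDG9.5 epiblast. In trophoblast Mrpl47 stood out, at 133 CPM in Reactivated and 28 CPM in EDG9.5 (4.75-fold, 3.83 to 5.92), and it had 67.3 CPM in E5.5. It shares 24.2% of its exonic bases with Actl6a and Ndufb5 on the other strand.

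Mrpl33, a small bacterial homologue, had 203 CPM in Reactivated and 75.5 CPM in EDG9.5 epiblast, 167 and 89.7 CPM in endoderm, and 390.3 and 191 CPM in trophoblast. Mrpl27, lower in EDG9.5 than in EDG7.5 epiblast, was 2.16-fold higher in Reactivated than in EDG9.5 epiblast (1.61 to 2.91), 2.03-fold in endoderm and 2.33-fold in trophoblast. In each lineage its Reactivated level was the highest of the 4 libraries.

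Mrpl24 was the large subunit member furthest the other way among those with 50 or more UMIs, although not called. It had 10.5, 15.3, 11.3 and 20.9 CPM in epiblast cells, 11.4, 11.7, 6.2 and 14.2 in endoderm cells and 7.58, 11.1, 8.54 and 17.1 in trophoblast cells, in stage order. In every lineage Reactivated lay below EDG9.5, and E5.5 was the highest of the 4 libraries. These are 17 to 50 UMIs in all sums before E5.5, and 26.3% of its exonic bases are shared with Rrnad1. Mrpl32 was also nearly level, with 48.5 CPM in Reactivated and 54.3 CPM in EDG9.5 endoderm.

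In the small subunit, Mrps12, which lines the decoding centre, was called higher in each lineage. It had 58.5, 51.1, 162 and 109.8 CPM in epiblast cells, 78.8, 65.2, 168 and 88.7 in endoderm cells and 64.3, 61.6, 175 and 130.4 in trophoblast cells, with Reactivated the highest library each time. Mrps28, the relative of a bacterial mRNA-binding protein, reached 203, 199 and 265 CPM in Reactivated epiblast, endoderm and trophoblast, against 84.9, 83.6 and 67.4 CPM in EDG9.5. Mrps14, another bacterial homologue, reached 149, 140.2 and 167 CPM in Reactivated, against 81, 62.5 and 100.3 CPM in EDG9.5. Mrps27, whose promoter holds 3 of the motifs, was 4.47-fold higher in Reactivated epiblast (3.03 to 6.77), 2.41-fold in endoderm and 2.26-fold in trophoblast. It shares 24.2% of its exonic bases with a gene on the other strand.

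For Mrps24 the change was larger in epiblast. It had 62, 40.1, 151 and 99.8 CPM in epiblast cells, 49.1, 30.9, 50.9 and 52.1 in endoderm cells and 48.2, 38.7, 63.8 and 66.5 in trophoblast cells, so that Reactivated over EDG9.5 was 3.77-fold in epiblast (3.02 to 4.73) and 1.65-fold in both other lineages. Mrps17, a bacterial homologue, had 71.1, 67.2, 111 and 109 CPM in epiblast cells, 159.8, 133, 211 and 116 in endoderm cells and 115, 86.1, 182 and 125 in trophoblast cells. It was called higher in Reactivated in all 3 lineages, at 1.65-fold, 1.59-fold and 2.11-fold. In endoderm its E5.5 level was the lowest of the 4 libraries, and in epiblast it was level with Reactivated. Mrps25, found in mitochondrial ribosomes alone, was 3.31-fold higher in Reactivated than in EDG9.5 epiblast (2.36 to 4.73), 2.6-fold in endoderm and 3.9-fold in trophoblast, but shares most of its exonic bases with Nr2c2 on the other strand.

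Mrps2 and Mrps31 went against the rest in single lineages. Mrps2, a bacterial homologue, had 146, 142, 104 and 106 CPM in epiblast cells, 129.8, 128, 131 and 99.9 in endoderm cells and 67, 73.8, 70.8 and 88 in trophoblast cells. In epiblast both later libraries were lower than both diapause libraries (Reactivated over EDG9.5 0.736, 0.626 to 0.865), but not by the fold that counts as a call. Mrps31, found in mitochondrial ribosomes alone, had 94.2, 75.9, 174 and 94.6 CPM in epiblast cells, 74.2, 66, 75.2 and 64.2 in endoderm cells and 102, 119.6, 79.4 and 88 in trophoblast cells. It was 2.29-fold in Reactivated over EDG9.5 epiblast and called, 1.14-fold in endoderm, and 0.663-fold in trophoblast, where it missed the fold on the (CPM + 10) scale.

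Paralogues and misleading names were looked at singly. Of the 3 Mrps18 paralogues, Mrps18c had 147 CPM in Reactivated and 75.5 CPM in EDG9.5 epiblast, 142 and 71.6 CPM in endoderm, and 181 and 80.9 CPM in trophoblast. Mrps18a, which despite its symbol lies in the large subunit, had 43.3 CPM in Reactivated and 30.3 CPM in EDG9.5 epiblast, 98.5 and 42.6 CPM in endoderm, and 103 and 38 CPM in trophoblast. Mrps18b stayed between 1.05 and 7.6 CPM in all 12 sums and shares 30.5% of its exonic bases with another gene. Mrps30, also a large subunit protein by structure, had 144, 135 and 135 CPM in Reactivated epiblast, endoderm and trophoblast, against 107, 117 and 80 CPM in EDG9.5. Mrps36 is now known as a part of the alpha-ketoglutarate dehydrogenase complex, and had 1.95 CPM in Reactivated and 6.68 CPM in EDG9.5 epiblast but 14.1 and 4.79 CPM in endoderm, from 5 to 66 UMIs.

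Members were also split into 46 homologues of bacterial ribosomal proteins and 26 proteins that bacteria lack, with the rest in neither class. The medians of Reactivated over EDG9.5 were 0.74 for bacterial homologues and 0.71 for mitochondria-specific members in epiblast cells, 0.63 and 0.46 in endoderm cells, and 0.93 and 0.79 in trophoblast cells. All 25 measured mitochondria-specific members lay above 0 in epiblast, as did 40 of 46 bacterial homologues. In endoderm 23 of 25 and 43 of 46 did so, and in trophoblast 24 of 25 and 43 of 46. Of all genes measured, 4630 of 12252 lay above 0 in epiblast, 4885 of 12707 in endoderm and 5186 of 11520 in trophoblast. Genes are not replicates, and these medians carry no test.

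The third comparison, E5.5 over Reactivated, sets embryos that developed after implantation against blastocysts flushed after estradiol. It shares the Reactivated library with the second comparison, so these comparisons are not independent. The summed share was 0.976 times as high in E5.5 epiblast (0.961 to 0.992), 0.867 times in endoderm (0.856 to 0.878) and 0.874 times in trophoblast (0.86 to 0.889). The median member stood at 0.093, -0.08 and -0.03, beside 0.069, 0.037 and 0.088 over all genes.

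Called higher in E5.5 were 6 of 75 members in epiblast, where 11.8% of all genes were called, and 0 in endoderm and 0 in trophoblast, with 8.5% and 15.9% of all genes. Called lower were 3 in epiblast (9.67% of all genes), 6 in endoderm (6.59%) and 10 in trophoblast (7.28%). The 6 higher ones were Mrpl1, Mrpl40, Mrps21, Mrps23, Mrps25 and Mrps36, of which Mrpl40 had 141 CPM in E5.5 and 82.7 CPM in Reactivated epiblast (1.7-fold, 1.48 to 1.97). Mrps21, a bacterial homologue, had 82.1 CPM in E5.5 and 50.7 CPM in Reactivated epiblast, and 117 and 79.7 CPM in endoderm, where the ratio of 1.46 (1.31 to 1.63) did not reach the fold. Mrpl2, which lies close to the peptidyl transferase centre, had 77.8 CPM in E5.5 and 50.2 CPM in Reactivated trophoblast and was not called. As shares of the 75 members, the count called lower in trophoblast lay above the share of all genes, that in endoderm was near it, and those in epiblast lay below it.

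Mrpl52 and Mrpl14 were called lower in E5.5 in all 3 lineages, as were 1.46% of the genes measured in all 3. Mrpl52, a mitochondria-specific protein of the central protuberance, had 114, 85.3 and 106 CPM in E5.5 epiblast, endoderm and trophoblast, against 185, 194 and 271 CPM in Reactivated, ratios of 0.614, 0.44 and 0.391. In endoderm and trophoblast its E5.5 level was below its EDG9.5 level of 105 and 109.6 CPM. Mrpl14, a bacterial homologue on the face that meets the small subunit, had 25.5, 39.6 and 45.3 CPM in E5.5, against 54.6, 72.5 and 102 CPM in Reactivated. Its E5.5 level in trophoblast was close to its 45.8 CPM in EDG9.5. Of the 4 libraries, Reactivated was the highest for both genes in every lineage.

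The ratio of large to small subunit transcripts was higher in the later libraries than in the diapause libraries in every lineage, by little in endoderm. The UMIs of the 46 large subunit members over those of the 29 small subunit members were 1.67, 1.67, 1.97 and 2.13 in epiblast in stage order, 1.65, 1.69, 1.76 and 1.78 in endoderm, and 1.8, 1.81, 2.07 and 1.97 in trophoblast. Between Reactivated and EDG9.5 the ratio was 1.18 times as high in epiblast (1.12 to 1.24), 1.04 times in endoderm (0.999 to 1.09) and 1.14 times in trophoblast (1.09 to 1.19). Between EDG9.5 and EDG7.5 it was 1, 1.03 and 1.01 times as high, each with an interval that holds 1. E5.5 over Reactivated gave 1.08 in epiblast (1.04 to 1.11), 1.01 in endoderm (0.984 to 1.04) and 0.951 in trophoblast (0.919 to 0.984).

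**Figure D4:**
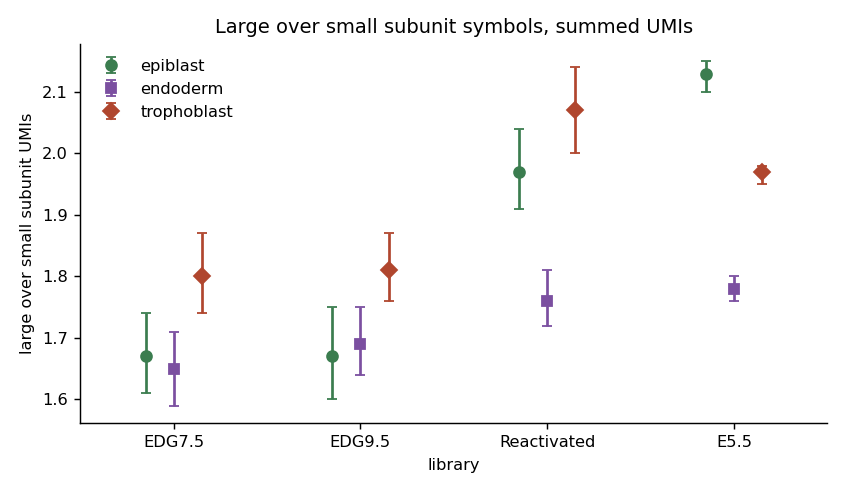
UMIs of large over those of small subunit members (y axis) by library (x axis) in epiblast, endoderm and trophoblast, with 95% counting intervals. The epiblast ratio is 2.13 in E5.5 and 1.67 in EDG7.5, and the endoderm ratio stays between 1.65 and 1.78.

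In sums, the large subunit reached 4386 CPM in Reactivated and 2166 CPM in EDG9.5 epiblast, a ratio of 2.02, and the small subunit 2224 and 1293 CPM, a ratio of 1.72. The same ratio was 1.69 for the large and 1.62 for the small subunit in endoderm, and 2.21 for the large and 1.94 for the small subunit in trophoblast. The median large member stood at 0.80, 0.64 and 0.96 on the log2 scale in epiblast, endoderm and trophoblast, and the median small member at 0.58, 0.58 and 0.78. A ratio of sums rests on the members with most counts. With Mrps18a and Mrps30 moved to the large subunit and Mrps36 left out, both later libraries still lay above both diapause libraries in each lineage. With the median CPM of members in place of sums they did so in 1 lineage only, and the median small member was above the median large member in 4 of the 12 sums.

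Within a library, single members also differed between lineages. The level in the highest lineage over that in the lowest was a median of 1.46-fold in EDG7.5, 1.44-fold in EDG9.5, 1.61-fold in Reactivated and 1.47-fold in E5.5, and 13, 5, 14 and 4 members in those libraries differed by 2-fold or more. Endoderm was the highest lineage for 31, 26, 11 and 8 of the 75 members in stage order, and trophoblast for 22, 30, 45 and 36. The same counts over all genes were not made, so these cannot be read as particular to the members. They use no UMI minimum. The thinly counted Mrps18b is among the 2-fold members in EDG7.5 and EDG9.5, and Mrps34 in Reactivated and E5.5. Mrps6, a bacterial homologue, was high in trophoblast in every library, with 53.9, 41.8, 63.3 and 74.8 CPM, against 9.45, 16.9, 20.7 and 21 CPM in epiblast. However, Mrps6 shares 19.9% of its exonic bases with Slc5a3 and Gm49711 on the same strand. Mrpl33 had 172, 191, 390.3 and 223 CPM in trophoblast, against 80.9, 75.5, 203 and 159.6 CPM in epiblast.

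Clusters within a lineage mostly agreed. Members summed to 3663 to 4792 CPM in the EDG7.5 clusters and to 3334 to 4416 CPM in those of EDG9.5, apart from trophoblast cluster 5 (51 cells) at 5089 CPM. In Reactivated they summed to 6513 and 6710.2 CPM in the epiblast clusters, 5933 to 6331 in the endoderm clusters, and 8698, 8211 and 4968 in trophoblast clusters 0, 2 and 6. Cluster 6, with 33 cells and a median of 9154 UMIs, thus lay at 4968 CPM, nearer to the diapause trophoblast clusters than to the other clusters of its lineage. In E5.5 the clusters ran from 4694 to 7139 CPM, lowest in an endoderm cluster.

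Some trophoblast clusters had more markers of another list than of their own among their 10 top genes. These were EDG7.5 cluster 5 (292 cells) and EDG9.5 cluster 7 (393 cells), with Msx1 of the uterine epithelium list, and E5.5 cluster 3 (789 cells), with Cdh5 of the endothelium list. Without them, the trophoblast median of Reactivated over EDG9.5 was 0.86, with 56 members called higher and 1 lower (20.2% and 24.2% of all genes). E5.5 over Reactivated gave a median of -0.039 with 1 called higher and 10 lower (17.2% and 7.86% of all genes), and EDG9.5 over EDG7.5 a median of 0.014.

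Marker lists of other cell types also moved between libraries. The 8-gene immune list summed to 233, 221, 57.4 and 3.41 CPM in epiblast in stage order, with Lyz2 at 0 in all 4, and the 7-gene endothelium list to 232, 209.6, 65.6 and 16.7 CPM. In trophoblast both were higher in the later libraries, the immune list at 1.52, 1.56, 76.9 and 30.2 CPM and the endothelium list at 9.4, 4.22, 35.2 and 253 CPM, with Ptprc, Lyz2, Tek and Cldn5 at 0 in all 4 libraries. In endoderm they reached at most 29.1 and 60.5 CPM. The uterine epithelium list, with 6 genes found, summed to 532, 436, 416 and 56 CPM in trophoblast, and the decidual stroma list to 57.7 CPM at most, in Reactivated endoderm, where Col3a1, Col1a2 and Dcn led cluster 7 (98 cells). The erythroid list stayed at 1.17 CPM or less. The part of such cells in the results was not tested.

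The genes that serve the mitoribosome did not move as one. Their counts of calls stand beside 15.7%, 12.9% and 19.6% of all genes called higher in Reactivated, and 31.8%, 23.6% and 22% called lower, in epiblast, endoderm and trophoblast. The 7 subunits listed under other symbols had a median log2 ratio of Reactivated over EDG9.5 of 0.64 in epiblast, 0.55 in endoderm and 0.85 in trophoblast, with 4, 3 and 5 called higher and 0 lower. Ict1, a large subunit protein that also frees peptides from stalled ribosomes, had 78.1 CPM in Reactivated and 23.2 CPM in EDG9.5 epiblast. Dap3, a small subunit GTP-binding protein, had 66.7 and 77.9 CPM in the same libraries, and Aurkaip1, another small subunit protein, 132 and 79 CPM. Mrp63, of the large subunit, had 188 CPM in Reactivated and 83.8 CPM in EDG9.5 trophoblast.

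Of 18 assembly factors measured, 1, 1 and 4 were called higher in epiblast, endoderm and trophoblast and 1, 1 and 0 lower, with medians of -0.062, -0.14 and 0.27. The share called higher in trophoblast was thus near that of all genes, and few were called lower in any lineage. Noa1, a GTPase of the mitochondrial ribosome, had 32.4 CPM in Reactivated and 55.8 CPM in EDG9.5 epiblast, while Fastkd2, an RNA-binding factor of the large subunit's RNA, had 53.7 CPM in Reactivated and 19.8 CPM in EDG9.5 trophoblast. Malsu1, which holds the large subunit apart until it is mature, had 62.8 CPM in Reactivated and 78.2 CPM in EDG9.5 epiblast.

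Translation factors were called in both directions, higher at shares near or below those of all genes. Of 15 measured, 2, 1 and 3 were called higher and 2, 3 and 1 lower in epiblast, endoderm and trophoblast, with medians of 0.13, 0.047 and 0.24. Slirp, which stabilises mitochondrial mRNAs together with Lrpprc, had 208, 231 and 365 CPM in Reactivated epiblast, endoderm and trophoblast, against 74.3, 53.2 and 67.6 CPM in EDG9.5. Mtif2, the initiation factor, had 29.5 CPM in Reactivated and 67.3 CPM in EDG9.5 endoderm, and Guf1, an elongation factor, 16 and 56.2 CPM in epiblast. Oxa1l, which inserts new proteins into the inner membrane, had 69.8 CPM in Reactivated and 122 CPM in EDG9.5 trophoblast.

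Genes for transcription and upkeep of mitochondrial DNA had medians of 0.071, 0.094 and 0.56, with 2, 0 and 4 of 8 called higher and none lower. Ssbp1, the single-strand DNA-binding protein, had 415 CPM in Reactivated and 107 CPM in EDG9.5 trophoblast. The mitochondrially encoded mRNAs that were measured had no common direction. Their medians were 0.28, -0.33 and -0.29 over 9, 10 and 10 measured genes, with 3, 0 and 0 called higher and 1, 3 and 3 lower. Several of the mRNAs that the mitoribosome translates were hardly counted. In EDG9.5 and Reactivated, mt-Co3 had 0 CPM in every lineage and mt-Nd4l at most 0.214 CPM. The highest level there was 6.39 CPM for mt-Co2 and 2.89 CPM for mt-Atp6. The medians thus rest on an incompletely counted set. The ND1 subunit gene mt-Nd1 had 14369.9 CPM in Reactivated and 4840.1 CPM in EDG9.5 epiblast, whereas mt-Co1, a catalytic subunit of cytochrome oxidase, had 5165 and 10203 CPM in the same cells.

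Import genes, whose products bring the mitoribosomal proteins into the organelle, were also often higher. Their medians were 0.59, 0.52 and 0.97, with 10 of 20, 9 of 20 and 15 of 19 called higher and 1, 0 and 0 lower. Tomm40, the pore of the outer membrane, had 336 CPM in Reactivated and 79.4 CPM in EDG9.5 epiblast, and Timm13, a chaperone between the membranes, 382 and 84.9 CPM in endoderm and 383 and 86.7 CPM in trophoblast. In epiblast Tomm7, the most counted import gene, had 1017 CPM in Reactivated and 1003 CPM in EDG9.5. Timm44, called lower there, had 38.6 and 67.6 CPM. Cytosolic ribosomal proteins had medians of 0.30, -0.20 and -0.028 and 23, 7 and 13 of 88 called higher and 2, 14 and 6 lower. In epiblast Rps4y2, the highest, had 542 CPM in Reactivated and 202 CPM in EDG9.5. Rps28, the lowest, had 2534 and 4878 CPM, and Rps20, the most counted, 4399 and 3671 CPM. The medians of these lists were not tested against those of the mitoribosomal genes, and the lists were chosen with earlier results of these data known.

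**Figure D5:**
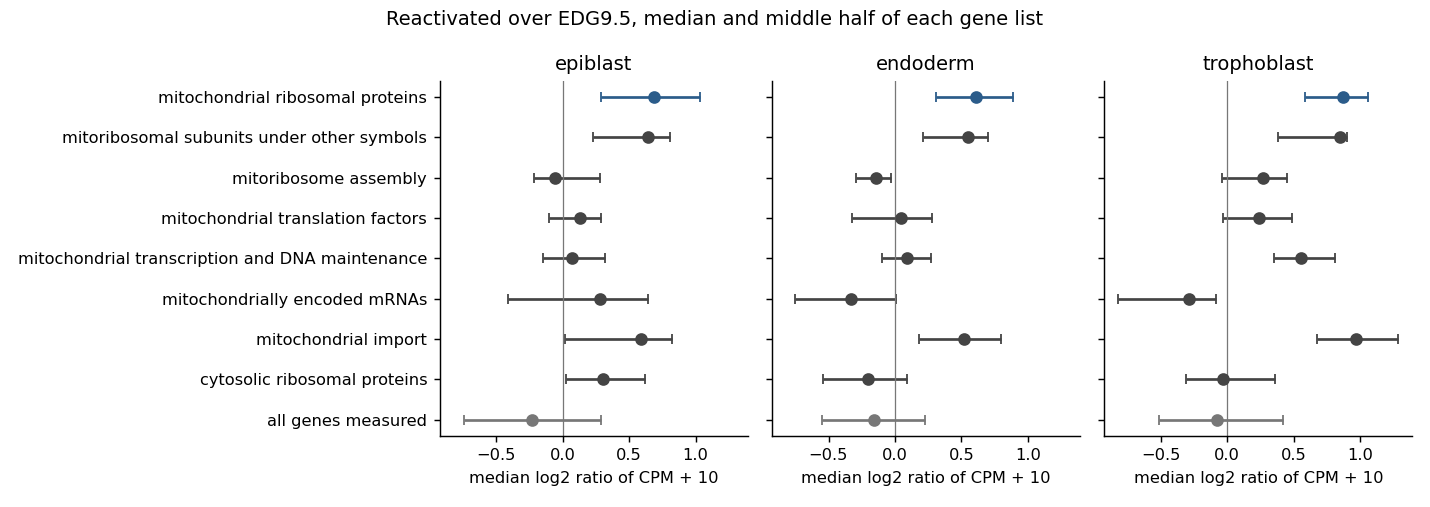
Median log2 ratio of Reactivated over EDG9.5 (point) and the range between the quartiles (line) for the mitoribosomal members and 7 related lists, with all genes measured in the bottom row, in epiblast, endoderm and trophoblast. Members, subunits under other symbols and import genes lie highest. The mitochondrially encoded mRNAs that were measured lie at 0.28, -0.33 and -0.29 in the 3 lineages.

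Counting limits touch some members. The sources used here do not give the strand setting of the counts. In the GENCODE M21 annotation 31 of the 75 members share exonic bases with another gene. Without strand, reads of genes on opposite strands cannot be told apart there. For 7 members (Mrpl3, Mrpl33, Mrpl51, Mrps18c, Mrps24, Mrps34 and Mrps6) some bases are shared on the same strand, where strand does not help. The share of exonic bases is 25% or more for Mrps34 (77.8%), Mrps25 (69.8%), Mrpl19 (36%), Mrpl43 (33.4%), Mrps18b and Mrpl24. It is just below that for Mrpl47 and Mrps27 (24.2% each) and for Mrps18c (23.2%). Mrps34 had 0 UMIs in 3 of the 12 sums, which allows up to 1.05 CPM there, and at most 2.46 CPM in any. Mrpl46 and Mrps11, which start side by side on opposite strands and share exonic bases, were both called higher in Reactivated in 3 lineages.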

How the data were processed

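The deposited files list whole-number counts per gene and cell barcode, 1 file per library. Per the submitters' processing notes the tools were STAR 2.7.1a, featureCounts 1.6.4 of Subread and UMI-tools 1.0.1, with build mm10. Since UMI-tools is among them, each count was taken as a UMI. The sources used here do not give the annotation, the strand setting or the barcode rule. Nothing in the labels says that embryos of a library came from separate litters or mothers.

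Cells with at least 1000 UMIs, 500 genes and under 25% mitochondrially encoded UMIs were kept, and 12, 6, 1 and 279 doublets called by Scrublet in scanpy 1.11.5 were removed, in stage order. The Reactivated and EDG9.5 shares of doublets are under 0.5%, so doublets may remain there. Each library was clustered alone (2000 variable genes, 30 components, 15 neighbours, Leiden resolution 1). A cluster took the name of the marker list with the highest mean log2(CPM + 10), if it led by 0.5 or more and 3 or more markers were at 20 CPM or above. This scoring was chosen after a first one left clusters unnamed. The names are rebuilt and are not the authors' own.

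UMIs were summed per lineage and library and divided by the total of the sum (CPM). CPM have exact Poisson intervals and ratios exact conditional binomial intervals (scipy 1.17.1). Log2 ratios add 10 CPM to both sides, which understates the change of genes with low levels. Genes were measured with at least 10 UMIs in the 2 sums. Only the fold calls, the ratio intervals and the median log2 ratio were tested, on simulated Poisson counts with planted changes. Cell filtering, doublet removal, clustering, naming, the subunit ratio and variation between libraries beyond counting were not simulated.

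Chosen for naming with values were the members with the 2 highest and 2 lowest ratios in each of the 9 pairs of sums (at least 50 UMIs). So were the 5 members of each subunit with the highest mean CPM, the 3 with the lowest, Mrps18a to Mrps18c, Mrps30, Mrps36 and Mrpl12. From each list the highest, lowest and most counted gene were chosen. Not all of their values are printed: Mrpl30, Mrps16 and several genes of the lists have none here. Other genes were named after their values were seen. The members and lists were chosen with earlier results of these data known. Promoters are from RefSeq (GRCm38.p6, the mm10 assembly) and exon overlaps from GENCODE M21.

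Alternatives were other cell filters, no doublet removal, other Leiden resolutions, no mixed clusters, thinned cells, means over cells, TMM factors (edgeR 4.0.16, R 4.3.3), other totals, other added CPM and UMI minimums, and other subunit definitions.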

Additional observations from a re-analysis of the deposited data

Results flagged for a closer look

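The pseudogene names left out of the gene set had UMIs in the deposited counts, above the 3 that a count of 0 allows. Over the 12 sums Mrpl23-ps1 had 610 UMIs, Mrps36-ps1 357, Mrps36-ps2 338 and Mrpl48-ps 151. Mrpl23-ps1 had 8.59 CPM in Reactivated and 6.68 CPM in EDG9.5 epiblast, beside 3.51 and 4.72 CPM of Mrpl23 itself, so the name with the suffix had more UMIs there than its parent gene. Reads of a gene and its near-identical copy may be split between them, and the levels of Mrpl23, Mrpl48 and Mrps36 are uncertain for that reason.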

How the results depend on the processing

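No paired analysis was possible because each stage has 1 library. In Reactivated over EDG9.5 every median stayed above 0 under every alternative run, at 0.64 to 0.98 in epiblast, 0.52 to 0.86 in endoderm and 0.83 to 1.04 in trophoblast. The furthest moves were to 0.98 in epiblast and 0.86 in endoderm with TMM factors, to 0.87 in epiblast and 1.04 in trophoblast with 1 CPM added, and to 0.97 in trophoblast with thinned cells.

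Small counts of calls moved, and for thinned cells and 1 CPM added the shares of all genes called moved as well. With cells thinned to 1000 UMIs, EDG9.5 over EDG7.5 gave 3 higher in epiblast and trophoblast, and 6, 3 and 6 lower in epiblast, endoderm and trophoblast; Reactivated over EDG9.5 gave 1, 1 and 3 lower; E5.5 over Reactivated gave 10, 5 and 9 higher and 8 lower in epiblast. Of all genes, EDG9.5 over EDG7.5 then called 6.29%, 4.67% and 5.21% higher and 7.28%, 5.85% and 6.85% lower, and E5.5 over Reactivated 25.5%, 19.5% and 32.9% higher and 15.6% lower in epiblast. With 1 CPM added the same comparisons gave 3, 1 and 2 higher and 4, 3 and 2 lower; 1, 1 and 2 lower; and 11, 2 and 5 higher and 7 lower in epiblast. Of all genes, 6.98%, 6.54% and 7.76% were then higher and 7.5%, 7.13% and 6.73% lower in EDG9.5 over EDG7.5, 44%, 38.7% and 35.4% lower in Reactivated over EDG9.5, and 30.5%, 21.2% and 34% higher and 18.1% lower (epiblast) in E5.5 over Reactivated. Without mixed clusters trophoblast gave 0 lower in EDG9.5 over EDG7.5 and 1 higher in E5.5 over Reactivated. TMM factors gave 0 lower in EDG9.5 over EDG7.5 trophoblast and 6 lower in E5.5 over Reactivated epiblast. Means over cells gave 2 lower in trophoblast in EDG9.5 over EDG7.5 and in Reactivated over EDG9.5, and 1 higher in E5.5 over Reactivated. Leaving ribosomal protein and mitochondrially encoded genes out of the totals gave 2 lower in Reactivated over EDG9.5 trophoblast, and 5 lower in epiblast and 1 higher in endoderm in E5.5 over Reactivated. A mitochondrial limit of 10% gave 1 higher in EDG9.5 over EDG7.5 trophoblast and in E5.5 over Reactivated endoderm. With at least 50 UMIs no member was lower in Reactivated trophoblast (0).

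The log2 ratio of large over small subunit sums ran between 0.72 and 1.09. The lowest and highest were 0.63 and 1.13 with thinned cells, 0.98 and 1.27 by structure, and -0.13 and 0.47 with median CPM; the highest was 1.14 without the most abundant member of each subunit. With median CPM the sign turned in EDG7.5 (-0.12), EDG9.5 (-0.13) and E5.5 (-0.044) endoderm and in E5.5 epiblast (-0.058). The causes were not tested. The other counts of calls stayed within 1.5 times of the values given.

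Depth limits the members under about 10 CPM, and 1 library per stage limits all comparisons.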
